A study of Homo sapiens with 6 samples.

Results

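The genes examined here were 10 genes of autophagy, chosen by name from the 20030 genes of the deposited count table: the transcription factor TFEB, the kinase gene ULK1, BECN1, WIPI1, ATG5, ATG7, the ATG8-family genes MAP1LC3B, GABARAPL1 and GABARAPL2, and the cargo receptor gene SQSTM1. All 10 were in the table and all 10 had enough counts to be tested. The rule that names them uses no measured value, although earlier results of these data were known when they were chosen. They were compared between NCI-H929 cells, an established human multiple myeloma line, carrying a lentiviral shRNA against IGF2BP1 (IGF2BP1-KD, 3 libraries) and negative control cells of the same line (IGF2BP1-NC, 3 libraries). IGF2BP1 is an RNA-binding protein that reads m6A on mRNAs and is known to stabilise many of the mRNAs it binds. According to the study's methods, the shRNA was driven by a U6 promoter from a vector that also carries puromycin resistance, and drug-selected stable transfectants were used, which are not described as single clones. A pair of shRNA target sequences is given, and the labels do not say which one these libraries carried. Nothing in the labels says that the libraries of a group came from separate cultures, so the p-values measure the spread between these libraries, which may be technical.

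Autophagy encloses part of the cytoplasm in a double membrane, the autophagosome, which then fuses with a lysosome. The ULK1 kinase complex starts the process, the lipid kinase complex around BECN1 makes the phosphoinositide PI3P that WIPI proteins bind, and ATG7 and ATG5 belong to the enzyme systems that attach ATG8-family proteins to the growing membrane. SQSTM1 (p62) links ubiquitinated cargo to these ATG8 proteins and is itself degraded with the cargo. TFEB, held in the cytosol by mTORC1 at the lysosome when nutrients are plentiful, switches on many autophagy and lysosome genes once it enters the nucleus. Plasma cells and myeloma cells make large amounts of secretory protein and are known to lean on autophagy beside the proteasome. mRNA levels, the only quantity measured here, do not report autophagic flux or the location of TFEB.

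The libraries held 16885449 to 18112179 counts, at which a count of 0 allows up to 3 counts, or 0.166 to 0.178 CPM (counts scaled to the library total), a limit for counting error only. The targeted gene matched the labels, at 47.0 ± 2.86 FPKM (SD, n = 3) in IGF2BP1-NC and 13.1 ± 0.388 FPKM (SD, n = 3) in IGF2BP1-KD. FPKM is the count scaled by the library total and by a length for each gene. The lengths used are not given in the sources used here. Orders and shares of different genes on this scale therefore rest on unknown lengths, while comparisons of 1 gene between libraries do not. IGF2BP1-NC library 1 stood apart from the other control libraries, with a median absolute log2 difference over genes of 0.153 and 0.156 to them, against 0.106 between those libraries and 0.0839 to 0.116 among the IGF2BP1-KD libraries. The labelled cell type was not borne out by its markers, since 7 of 10 plasma cell markers had at most 3 counts in every library while all 12 erythroid markers were above 1 CPM in every library. Summed CPM of the plasma cell markers was 76.1 to 161 in IGF2BP1-NC, with the 161 in library 1, and 74.8 to 81.1 in IGF2BP1-KD. Summed erythroid markers lay at 8080 to 9690 CPM and 9030 to 9860 CPM. A list of 16 eosinophil, basophil and granulocyte markers differed between the groups in its sum. The summed level was 30.8 to 43.4 CPM in IGF2BP1-NC, 292 and 338 CPM in IGF2BP1-KD libraries 1 and 2 and 821 CPM in library 3. Of the 16, 4 were above 1 CPM in every library. Most of the sum came from PRG2, MS4A3 and TCN1, so it does not describe the list as a whole. AZU1 and PRTN3 overlapped between the groups, and CPA3 and RNASE2 had at most 3 counts in every library. These genes were named after their values were seen. The part of this list in the results below was not tested. In bulk RNA, fewer cells of a type and less RNA per cell cannot be told apart.

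Among the 10 genes, SQSTM1 rose by 2.02-fold in IGF2BP1-KD cells relative to the IGF2BP1-NC cells, while GABARAPL1, GABARAPL2 and BECN1 were lower, at 0.638, 0.754 and 0.785 of the control level. TFEB itself, ULK1, WIPI1, ATG5, ATG7 and MAP1LC3B did not pass the test. A gene is called here when its p-value, after Benjamini-Hochberg adjustment over the 11994 tested genes of the table, is under 0.05 in the two-sided quasi-likelihood test of edgeR. Of the 10 genes, 4 were called, beside 28.2% of all tested genes. The 1 gene called higher stands beside 13.7% of all tested genes, and the 3 called lower beside 14.5%. SQSTM1 was also the only one of the 10 called higher by at least 2-fold, as were 3.06% of all tested genes. For 5 of the 10 genes, the 4 called ones and ATG7, every library of 1 group lay beyond every library of the other, a share close to the 45.6% of all tested genes. The median log2 fold change of the 10 genes was -0.13, with 4 above 0, and that of all tested genes was -0.005.

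**Figure D1:**
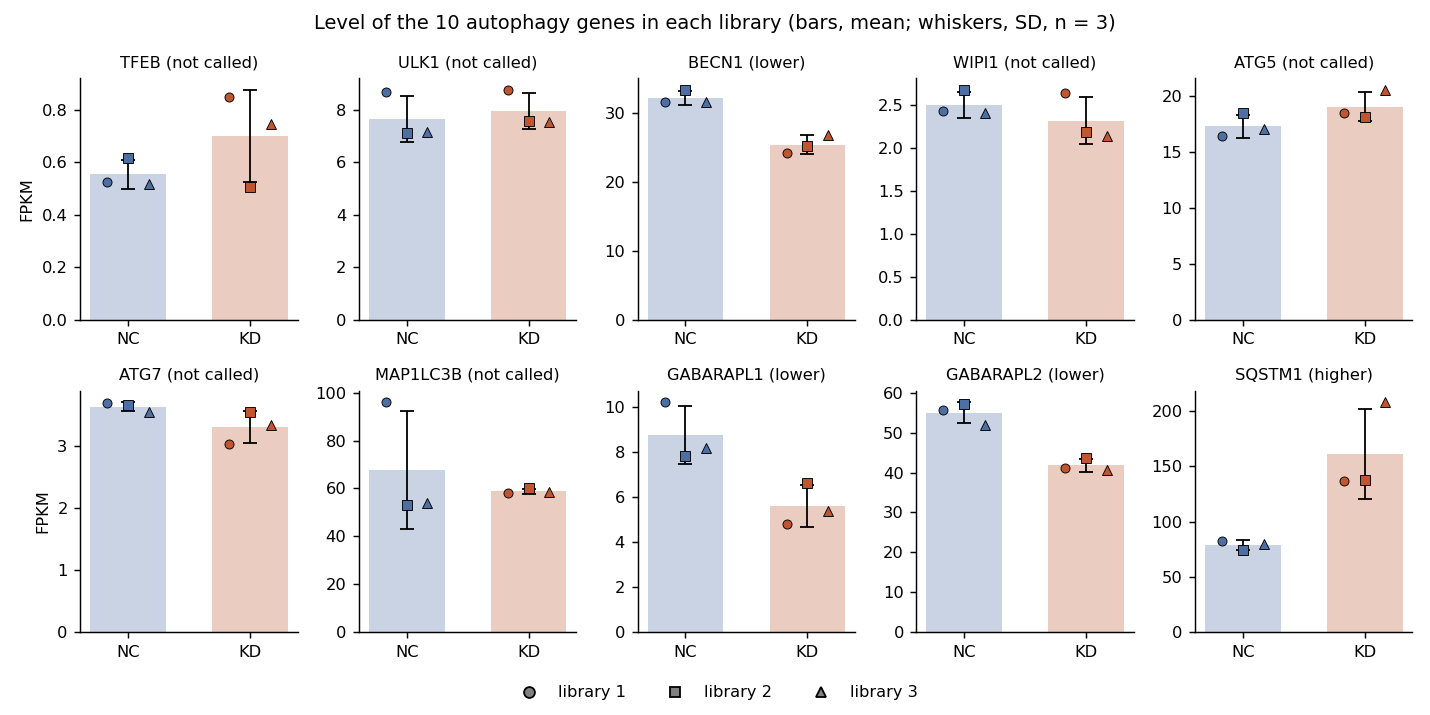
FPKM of the 10 genes in each of the 6 libraries, with bars for the group mean, whiskers for the SD (n = 3) and 1 symbol per library number; each panel has its own linear axis from 0. SQSTM1 lies at 137 to 208 FPKM in IGF2BP1-KD against 74.2 to 82.4 in IGF2BP1-NC, GABARAPL1, GABARAPL2 and BECN1 lie lower in all IGF2BP1-KD libraries, and MAP1LC3B is set apart only in IGF2BP1-NC library 1.

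The levels of the 10 genes spanned a wide range in control cells, from SQSTM1 at a mean of 78.8 FPKM, MAP1LC3B at 67.7, GABARAPL2 at 55.0, BECN1 at 32.2 and ATG5 at 17.3 down to GABARAPL1 at 8.72, ULK1 at 7.64, ATG7 at 3.63, WIPI1 at 2.51 and TFEB at 0.554. The library ranges of neighbours in this order overlapped for SQSTM1 and MAP1LC3B, for MAP1LC3B and GABARAPL2, and for GABARAPL1 and ULK1, and for no other neighbours. In IGF2BP1-KD cells no neighbours overlapped. The order there was the same, except that GABARAPL1 (5.60 FPKM) lay below ULK1 (7.94 FPKM).

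SQSTM1 (NCBI gene 8878) has 8 exons in the GENCODE release 44 annotation of GRCh38 (chromosome 5, 179806398 to 179838078, plus strand). It had 5523, 5004 and 5586 counts in IGF2BP1-NC libraries 1, 2 and 3 against 9452, 8994 and 14017 in their IGF2BP1-KD counterparts. Every IGF2BP1-KD library was above every control library, and IGF2BP1-KD library 3 was well above the other two. On the FPKM scale this was 78.8 ± 4.19 against 161 ± 41.0 (SD, n = 3 each). The log2 fold change was 1.02 (SE 0.174, 95% interval 0.59 to 1.44, adjusted p = 0.00853 from edgeR). Without IGF2BP1-KD library 3, the library highest in summed granulocyte markers, it was 0.79 with an adjusted p of 7.11e-05 from the same edgeR test. Without IGF2BP1-NC library 1 it was 1.04, but the adjusted p from edgeR rose to 0.0568. With both of these libraries left out, a choice made after the data had been seen, it was 0.81 with an adjusted p of 9.14e-11 from edgeR. Without IGF2BP1-KD library 3, summed granulocyte markers were still higher in IGF2BP1-KD, at 292 and 338 CPM against 30.8 to 43.4 CPM in IGF2BP1-NC. Their part in the SQSTM1 rise was not tested. Of the bases of the SQSTM1 transcript, 55.7% are overlapped by exons of MRNIP on the other strand. MRNIP had a log2 fold change of 0.04 (adjusted p = 0.865 from edgeR), and the strand setting of the counting is not given in the sources used here.

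The ATG8 proteins fall into the LC3 subfamily, known for the growth of the phagophore membrane, and the GABARAP subfamily, known more for closure, fusion with lysosomes and the recruitment of the ULK1 complex. Of their 7 genes, 5 were expressed at a level that could be tested, 1 was higher and 2 were lower. The share of the 5 called was 60%, beside 28.2% of all tested genes. GABARAPL1 (NCBI gene 23710, chromosome 12, 10212458 to 10223128, plus strand, 4 exons) had 437, 339 and 367 counts in IGF2BP1-NC and 213, 278 and 233 counts in IGF2BP1-KD. All IGF2BP1-KD libraries were below all control libraries. Its FPKM fell from 8.72 ± 1.26 to 5.60 ± 0.937 (SD, n = 3 each), a log2 fold change of -0.65 (SE 0.138, interval -0.95 to -0.345, adjusted p = 0.00585 from edgeR). It had the deepest fall of the 10 genes. GABARAPL2 (NCBI gene 11345, chromosome 16, 75566375 to 75577881, plus strand, 4 exons) had 968, 998 and 944 counts in IGF2BP1-NC and 736, 737 and 711 counts in IGF2BP1-KD. The libraries of each group lay close together and the groups were well separated. Its FPKM fell from 55.0 ± 2.66 to 41.8 ± 1.54 (SD, n = 3 each), a log2 fold change of -0.41 (SE 0.0716, adjusted p = 0.00211 from edgeR). Both falls passed the threshold in each fit that left out 1 library, between -0.785 and -0.536 for GABARAPL1 and between -0.438 and -0.371 for GABARAPL2. Only 1.69% of the 50-base stretches of the GABARAPL1 transcript also occur elsewhere, in GABARAPL3, and none of those of GABARAPL2.

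GABARAP, the third gene of this subfamily and not among the 10, went the other way. Its FPKM was 92.0, 84.9 and 83.7 in IGF2BP1-NC and 106, 106 and 115 in IGF2BP1-KD, without overlap, a log2 fold change of 0.32 (SE 0.0655, adjusted p = 0.00497 from edgeR). The ratio of GABARAP to GABARAPL2 FPKM, computed after these values had been seen and given with no test, was 1.65, 1.49 and 1.61 in IGF2BP1-NC and 2.59, 2.43 and 2.82 in IGF2BP1-KD. In the GENCODE annotation, 52.4% of the 50-base stretches of the GABARAP transcript also belong to other transcripts on the same strand, so its counts are uncertain.

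MAP1LC3B (NCBI gene 81631, chromosome 16, 87383953 to 87404779, plus strand), the LC3 gene whose protein is the usual marker of autophagosomes, had 3804, 2117 and 2241 counts in IGF2BP1-NC and 2371, 2322 and 2326 counts in IGF2BP1-KD. A single control library, IGF2BP1-NC library 1, was far above the 5 others, and those of IGF2BP1-KD lay between it and the other controls. The log2 fold change was -0.21 (SE 0.252, interval -0.862 to 0.442, adjusted p = 0.588 from edgeR), and its sign rested on that library: without it the value was 0.11 (adjusted p = 0.145 from edgeR). Of the 50-base stretches of its transcript, 18.3% also occur in MAP1LC3B2 or the pseudogene MAP1LC3BP1, and MAP1LC3B2 was likewise highest in IGF2BP1-NC library 1, at 10.8 FPKM against 5.80 to 6.74 in the others (log2 fold change -0.33, adjusted p = 0.270 from edgeR). MAP1LC3A had at most 2 counts in any library and MAP1LC3C had 0 in all.

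Per length, GABARAP mRNA made up 38.8% ± 3.48 of the summed ATG8-family FPKM in IGF2BP1-NC and 49.2% ± 1.65 in IGF2BP1-KD, MAP1LC3B 29.4% ± 6.0 and 26.5% ± 0.636, GABARAPL2 24.6% ± 3.18 and 18.9% ± 0.783, and GABARAPL1 3.86% ± 0.133 and 2.53% ± 0.399 (SD, n = 3 each). The shares of GABARAPL1 and GABARAPL2 were lower and that of GABARAP higher in all IGF2BP1-KD libraries. The GABARAP subfamily as a whole took 59.6%, 71.5% and 70.5% in IGF2BP1-NC and 70.5%, 70.1% and 71.3% in IGF2BP1-KD. The difference of 3.40 percentage points was within the spread of the controls (p = 0.9, exact permutation test, two-sided), and without IGF2BP1-NC library 1 it was -0.374 points. The summed FPKM of the family was 226 ± 33.6 against 222 ± 5.17 (SD, n = 3 each).

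**Figure D2:**
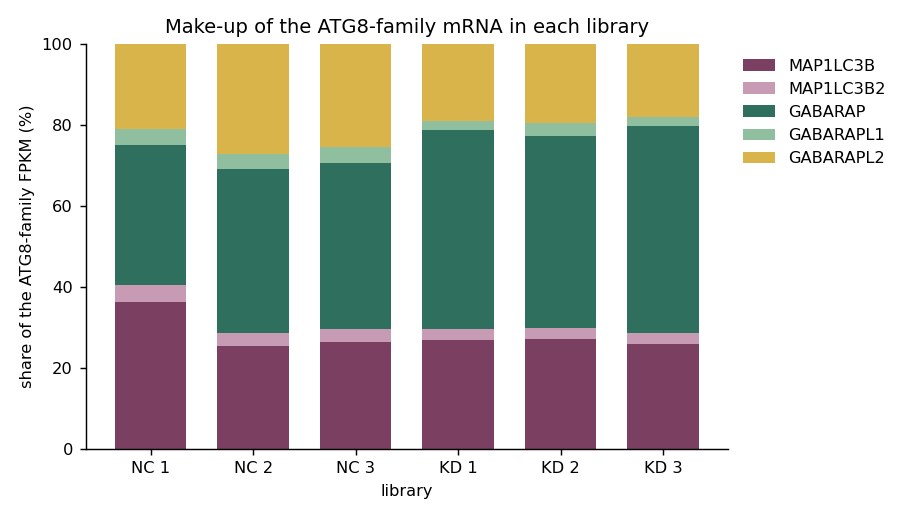
Share of the summed ATG8-family FPKM (in percent, linear axis from 0 to 100) taken by each of the 5 expressed genes in the 6 libraries. GABARAP takes 47.5% to 50.9% in the IGF2BP1-KD libraries against 34.7% to 41.0% in the controls, and MAP1LC3B takes 36.3% in IGF2BP1-NC library 1 against 25.3% to 27.0% in the other 5.

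BECN1 (NCBI gene 8678, chromosome 17, 42810134 to 42833350, minus strand, 12 exons), the scaffold of the class III PI3-kinase complex, had 1255, 1333 and 1312 counts in IGF2BP1-NC and 997, 974 and 1074 counts in IGF2BP1-KD. The groups did not overlap. Its FPKM fell from 32.2 ± 1.01 to 25.5 ± 1.32 (SD, n = 3 each), a log2 fold change of -0.35 (SE 0.0687, interval -0.501 to -0.199, adjusted p = 0.00385 from edgeR). It was between -0.388 and -0.316 with any 1 library left out and passed the threshold each time. BECN1 was the only gene called among the 8 tested genes of its complex and regulators, whose median log2 fold change was -0.14. The share called there was 12.5%, beside 28.2% of all tested genes. Of its transcript, 37.7% is overlapped by CNTD1 exons on the other strand.

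ULK1, the kinase at the head of the pathway, had 794, 656 and 685 counts in IGF2BP1-NC and 828, 675 and 693 counts in IGF2BP1-KD. Library 1 was the highest of each group and the groups overlapped, with a log2 fold change of 0.05 (SE 0.0951, interval -0.162 to 0.255, adjusted p = 0.749 from edgeR). Of the other genes of the ULK1 complex, ATG101, a partner of ATG13, was higher (log2 fold change 0.33 with SE 0.0947, adjusted p = 0.0221 from edgeR). ATG13, the adaptor of the complex, was lower (-0.21 with SE 0.0699, adjusted p = 0.0438 from edgeR). Both calls were unsteady: in the 6 fits that left out 1 library, the adjusted p from edgeR ranged from 0.0084 to 0.0838 for ATG101, over the threshold in 3, and from 0.0403 to 0.125 for ATG13, over it in 5. ULK2 had at most 5 counts in any library and was not tested.

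WIPI1, a PI3P-binding protein of the forming membrane and a gene regulated by TFEB, had 182, 202 and 189 counts in IGF2BP1-NC and 204, 160 and 161 counts in IGF2BP1-KD. Its groups overlapped, with a log2 fold change of -0.12 (SE 0.135, interval -0.416 to 0.174, adjusted p = 0.535 from edgeR). Of its transcript, 28.3% is overlapped on the other strand by exons of ARSG, whose log2 fold change was 1.03 (adjusted p = 0.0282 from edgeR). Among the 10 tested genes of phagophore expansion, 1 was called (10%, beside 28.2% of all tested genes), ATG9B, a membrane-spanning lipid scramblase. It was higher at a low level, 0.429 ± 0.0277 against 1.03 ± 0.239 FPKM (SD, n = 3 each), a log2 fold change of 1.25 (adjusted p = 0.00296 from edgeR).

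ATG5, which is joined to ATG12 in the complex that places ATG8 proteins on the membrane, had 969, 1091 and 1047 counts in IGF2BP1-NC and 1118, 1038 and 1218 counts in IGF2BP1-KD. The groups overlapped, with a log2 fold change of 0.13 (SE 0.0781, interval -0.046 to 0.297, adjusted p = 0.255 from edgeR). ATG7, the activating enzyme of both conjugation systems, had 592, 593 and 598 counts in IGF2BP1-NC and 504, 557 and 539 counts in IGF2BP1-KD. All IGF2BP1-KD libraries were below the controls, but the log2 fold change of -0.15 (SE 0.0828, interval -0.329 to 0.034) did not pass the test (adjusted p = 0.207 from edgeR), and 29.9% of the transcript is overlapped by VGLL4 on the other strand. Of the 11 tested conjugation genes, 2 were higher, the protease gene ATG4A (0.37, adjusted p = 0.0177 from edgeR) and ATG16L2 (0.74, adjusted p = 0.0180 from edgeR), and 1 was lower, ATG12 (-0.29, adjusted p = 0.0123 from edgeR). Leaving out 1 library took the adjusted p from edgeR as high as 0.0697 for ATG4A, 0.0626 for ATG16L2 and 0.0525 for ATG12. The share of the list called, 27.3%, was near the 28.2% of all tested genes, and its median log2 fold change was 0.08.

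**Figure D3:**
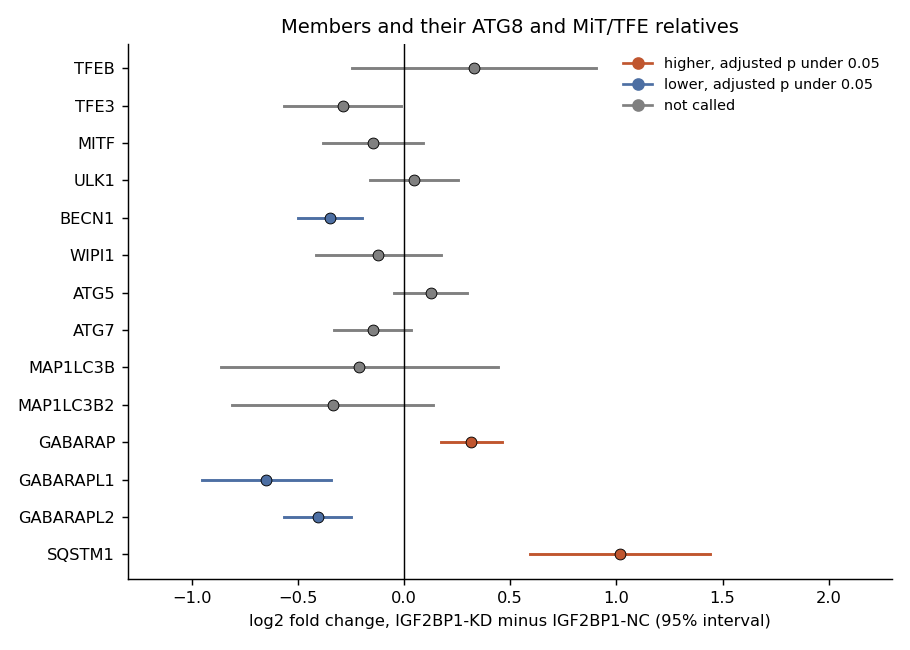
Log2 fold changes (IGF2BP1-KD minus IGF2BP1-NC, linear axis in log2 units) of the 10 genes and of the other tested ATG8-family and MiT/TFE genes, with lines for the 95% interval and colour for the call at an adjusted p under 0.05. SQSTM1 (1.02) and GABARAP (0.32) lie to the right of 0, GABARAPL1 (-0.65), GABARAPL2 (-0.41) and BECN1 (-0.35) to the left, and TFEB and MAP1LC3B have the widest intervals of the 10 genes.

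SQSTM1 belongs to a list of 14 selective autophagy receptors, of which 13 were tested, 4 were higher and 1 was lower, with a median log2 fold change of 0.05. The share called was 38.5%, beside 28.2% of all tested genes, and only 2 were higher when library 2 of the controls, or library 1 or 2 of the knockdown cells, was left out. Beside SQSTM1, those higher were OPTN, a receptor for damaged mitochondria and bacteria (log2 fold change 0.61, SE 0.111, adjusted p = 0.00256 from edgeR), TOLLIP (0.33, adjusted p = 0.0285 from edgeR) and TEX264, a receptor for the endoplasmic reticulum (0.31, adjusted p = 0.0200 from edgeR), the last named after its value was seen. The call of TOLLIP was lost in 4 of the 6 fits without 1 library, where its adjusted p from edgeR reached 0.0929. BNIP3, a mitophagy receptor induced by hypoxia, was lower (-0.36, SE 0.0837, adjusted p = 0.00906 from edgeR). At the fusion step the share called was 14.3%, beside 28.2% of all tested genes. Here 2 of 14 tested genes were higher and none was lower, with a median of 0.09. These were PLEKHM1, an adaptor that binds ATG8 proteins and the HOPS complex (0.39, adjusted p = 0.0252 from edgeR), and STX17, the SNARE of the autophagosome (0.27, adjusted p = 0.0132 from edgeR). Leaving out 1 library took the adjusted p from edgeR up to 0.1 for PLEKHM1 and 0.0508 for STX17. Over these lists and the control and lysosome lists described next, 28 of 98 tested genes were higher, 13 of them from the lysosome list, and 6 were lower, beside 13.7% higher and 14.5% lower among all tested genes. In the broader set of genes whose deposited KEGG terms name autophagy in animals, 19 of 117 tested genes were higher and 13 lower (median log2 fold change -0.002), and for mitophagy 7 of 61 were higher and 9 lower (median -0.08). The shares called, 27.4% and 26.2%, were near the 28.2% of all tested genes. For autophagy in animals the counts were 10 higher and 12 lower without IGF2BP1-NC library 2, and 12 each without IGF2BP1-KD library 3.

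TFEB (NCBI gene 7942, chromosome 6, 41683978 to 41736259, minus strand, 9 exons) was the least expressed of the 10 genes, with 33, 39 and 34 counts in IGF2BP1-NC and 55, 31 and 47 counts in IGF2BP1-KD. IGF2BP1-KD library 2 lay below all control libraries and the other IGF2BP1-KD libraries above them. The log2 fold change was 0.33 (SE 0.262, interval -0.245 to 0.902, adjusted p = 0.378 from edgeR), and this interval includes 0. TFE3, the related factor with the highest level, had 18.9 ± 3.42 FPKM in IGF2BP1-NC and 15.6 ± 1.79 FPKM in IGF2BP1-KD (SD, n = 3 each), a log2 fold change of -0.29 (adjusted p = 0.106 from edgeR). MITF had 5.40 ± 0.591 and 4.91 ± 0.621 FPKM (SD, n = 3 each), a log2 fold change of -0.15 (adjusted p = 0.341 from edgeR). TFEC had at most 2 counts in any library. No MiT/TFE factor was called, although TFE3 passed the threshold with IGF2BP1-NC library 1 and IGF2BP1-KD library 3 both left out (-0.24, adjusted p = 0.0161 from edgeR).

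The list of MiT/TFE factors and their control held 12 tested genes, of which 4 were higher and none was lower (median log2 fold change 0.11). The share called, 33.3%, was near the 28.2% of all tested genes. The 4 act in mTORC1 signalling at the lysosome. RRAGC, a Rag GTPase that recruits mTORC1 and binds TFEB, had 8.49, 11.3 and 12.9 FPKM in IGF2BP1-NC and 20.4, 20.2 and 23.2 FPKM in IGF2BP1-KD. The groups were far apart, with a log2 fold change of 0.95 (SE 0.144, adjusted p = 0.00184 from edgeR), and 43.1% of its 50-base stretches are shared with another annotated transcript. FLCN, the protein that acts on RRAGC, and its partners FNIP1 and FNIP2 had log2 fold changes of 0.44, 0.38 and 0.58 (adjusted p = 0.0257, 0.0063 and 0.00669 from edgeR), FLCN and FNIP1 being named after their values were seen.

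Of 21 lysosome genes commonly listed as regulated by TFEB, 20 were tested, 13 were higher and none was lower, with a median log2 fold change of 0.45 and 17 above 0. Of all tested genes, 13.7% were higher. With 1 library left out the number higher was 10 to 13, with the 10 reached without IGF2BP1-NC library 1, and 1 gene of the list was called lower without IGF2BP1-NC library 3. The largest rises were those of the protease CTSB, from 36.6 ± 0.401 to 82.3 ± 23.9 FPKM (SD, n = 3 each; log2 fold change 1.16, SE 0.203, adjusted p = 0.0113 from edgeR), and of the acid glucosidase GAA, from 0.809 ± 0.244 to 1.67 ± 0.301 FPKM (SD, n = 3 each; 1.03, SE 0.234, adjusted p = 0.00783 from edgeR). Without IGF2BP1-NC library 1 and without IGF2BP1-NC library 3, the adjusted p of CTSB from edgeR was 0.0676 and 0.0508. Each of the 13 genes had its highest level in IGF2BP1-KD library 3, as SQSTM1 did. The 13 genes had a median log2 ratio to the control mean of 0.575, 0.53 and 0.769 in IGF2BP1-KD libraries 1, 2 and 3. In the control libraries it was between -0.099 and 0.113. These genes were picked for being called higher in this same comparison, so their place above the controls follows from that choice. The summed granulocyte markers were also highest in IGF2BP1-KD library 3, and their part in the lysosome result was not tested. With IGF2BP1-NC library 1 and IGF2BP1-KD library 3 both left out, the number of lysosome genes called higher was 13. That fit keeps the difference in summed granulocyte markers, at 292 and 338 CPM in IGF2BP1-KD against 43.4 and 30.8 CPM in IGF2BP1-NC.

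**Figure D4:**
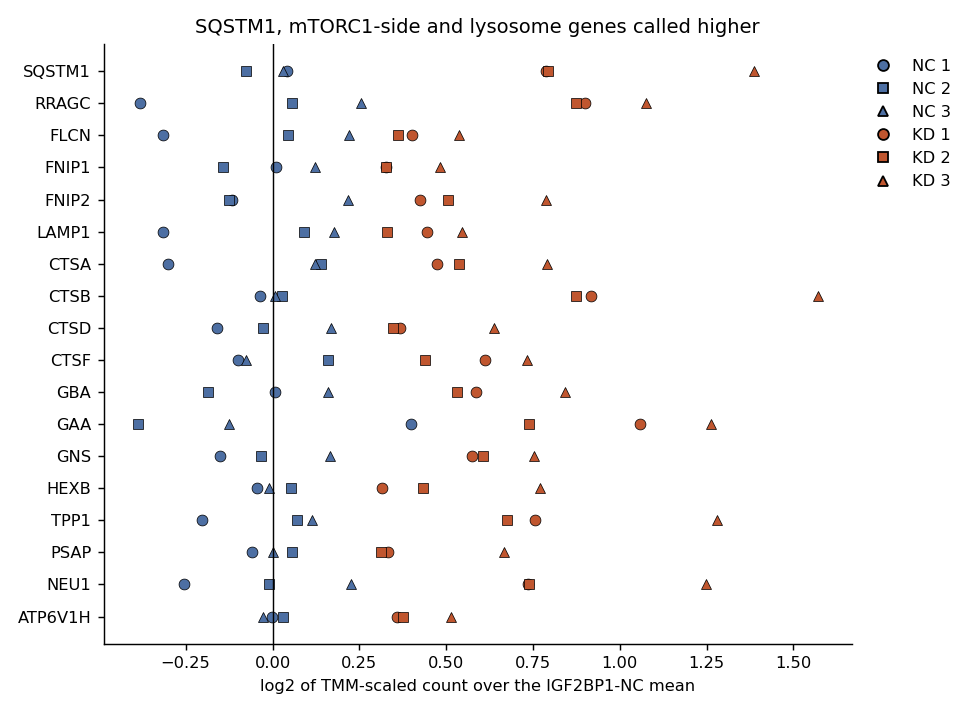
Log2 ratio of the scaled count to the mean of the IGF2BP1-NC libraries (linear axis in log2 units) for SQSTM1 and for the genes called higher among the MiT/TFE control genes and the lysosome list, 1 symbol per library number and colour for the group. The 3 IGF2BP1-KD libraries lie to the right of the 3 controls for every gene shown, which follows from showing only genes called higher. Library 3 (triangles) is the farthest right of them, with a median over the 13 lysosome genes of 0.769.

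TFEB and its relatives bind the E-box core CACGTG, and the string TCACGTGA is the inner part of the longer motif known for lysosome genes. Both strings of letters read the same on either strand, and every match of the longer one is also a match of the shorter. They were searched in the RefSeq promoter windows (GRCh38.p14, 250 bases before to 50 after a gene's start), which were at hand for all 10 genes, with 15 windows. None of the 10 held CACGTG, beside 12.9% of the 9870 tested genes with a window and 8.77% of all 27305 genes with a window. At such shares, 10 genes are too few to tell this from the background. Of 12 lysosome genes with a window, 9 held CACGTG and 5 held TCACGTGA, which 2.32% of tested genes and 1.18% of all genes held. That list is known in the field partly through this motif, so its share is not independent of how such lists are made. A match is a description and not a bound site, and its absence says only that these letters are not in the window. Over all the lists, 20 genes held CACGTG in a window, of which 8 were higher, 1 was lower and 11 were not called. Of the 9 that held TCACGTGA, 3 were higher (GAA, LAMP1 and CTSA) and 6 were not called. Of all tested genes, 13.7% were higher. Most of the 8 and all of the 3 are in the lysosome list, so these counts cannot separate the motif from that list. The following stretches show CACGTG in capitals, read 5′ to 3′ on the strand of the gene, so that promoters of each outcome can be compared. GAA, LAMP1 and RRAGC were higher in IGF2BP1-KD, BNIP3 was lower, and MCOLN1, VPS11 and ATG14 were not called, with LAMP1, MCOLN1, VPS11 and ATG14 picked for display, and CTSA named, after their values were seen.
GAA (chr17:80101493-80101522, plus strand): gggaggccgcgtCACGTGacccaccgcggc
LAMP1 (chr13:113297199-113297228, plus strand): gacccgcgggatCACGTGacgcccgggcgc
RRAGC (chr1:38859867-38859896, minus strand): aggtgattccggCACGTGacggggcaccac
BNIP3 (chr10:131982040-131982069, minus strand): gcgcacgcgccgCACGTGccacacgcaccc
MCOLN1 (chr19:7522571-7522600, plus strand): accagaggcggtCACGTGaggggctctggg
VPS11 (chr11:119067772-119067801, plus strand): gctggctcagctCACGTGacaaagctcccg
ATG14 (chr14:55411834-55411863, minus strand): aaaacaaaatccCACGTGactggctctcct

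The stretches of GAA, LAMP1, MCOLN1 and VPS11 hold TCACGTGA, and those of RRAGC, BNIP3 and ATG14 hold only the core. LAMP1 encodes an abundant lysosomal membrane protein, MCOLN1 a lysosomal calcium channel, VPS11 a subunit of the HOPS tethering complex and ATG14 the subunit that directs the BECN1 complex to autophagosomes. SQSTM1, like the rest of the 10 genes, held neither string in its window, and sequence outside the windows was not searched.

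**Figure D5:**
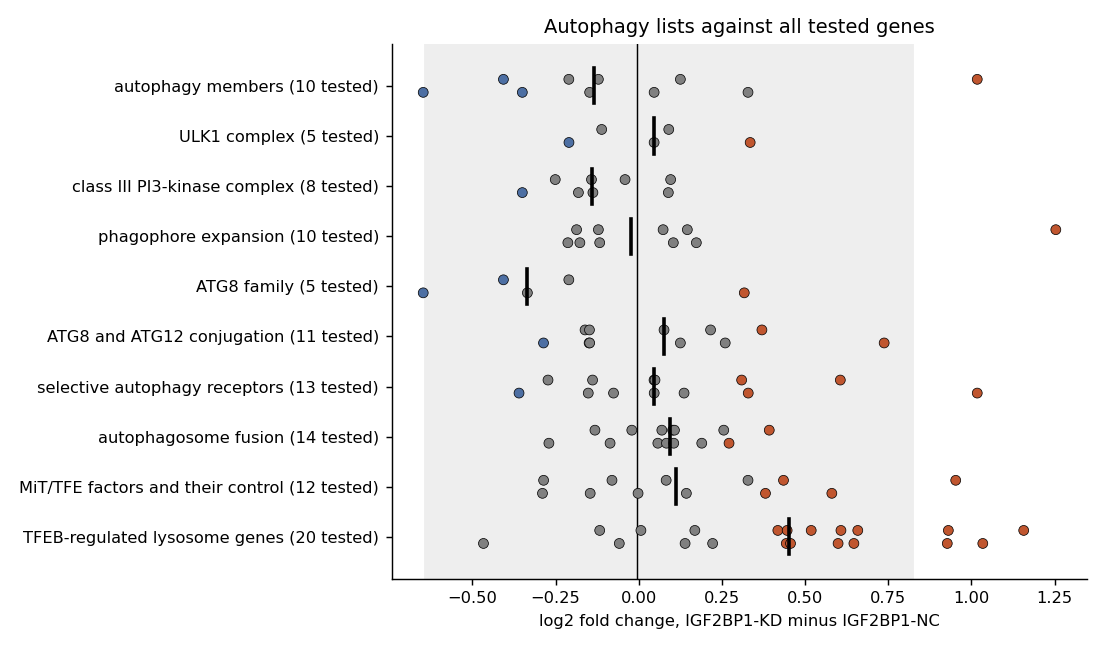
Log2 fold changes (IGF2BP1-KD minus IGF2BP1-NC, linear axis in log2 units) of every tested gene in each autophagy list, coloured by call (red higher, blue lower, grey not called), with a thick bar for the list median, a thin line for the median of all tested genes (-0.005) and a grey band for their 5th to 95th percentiles. The lysosome list has the highest median (0.45) and the ATG8 family the lowest (-0.335). Most genes of every list, these lists among them, lie inside the band.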

How the data were processed

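RNA of 6 libraries was sequenced and grouped by the labels. Per the labels, the submitters' processing notes name Trimmomatic, HISAT2, HTSeq, Cufflinks and GRCh38, without versions. The counts deposited by the authors are whole reads per gene. For each gene, the count over the library total was compared with the FPKM deposited by the authors. Their ratio was nearly the same in all 6 libraries. Each gene's largest deviation from its mean ratio was taken, and the median of these over 9309 genes was 1.5e-08%. This check used no gene length, so it does not show which length was used. Among the FPKM rows, 27 symbols had become dates and were matched by row. The kit was stranded, but the strand setting and annotation release are not given in the sources used here.

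Counts were tested in R 4.3.3 with edgeR 4.0.16 (TMM, filterByExpr, robust glmQLFit, glmQLFTest), leaving 8036 genes untested. The biological coefficient of variation was 9.55%. The genes, lists and tests were chosen with earlier results of these data known. Named are all 10 genes, IGF2BP1, every MiT/TFE and ATG8-family gene, and from each list at most 2 rises and 2 falls, the largest among called genes. Other genes named are marked as named after their values were seen, or stand beside a gene whose sequence they share or overlap. Lists are described by counts, with no set test. Levels per length use FPKM, and their shares the exact permutation test.

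Alternatives were library size only, upper-quartile factors, DESeq2 1.42.0, limma-voom (limma 3.58.1), no filter, at least 10 counts in every library, the replicate block, limma on log2(FPKM + 1) and log2(FPKM + 0.1) with a mean FPKM of at least 1, no FPKM filter, and each library left out. On simulated counts of this comparison edgeR called 99 of 100 genes changed 2-fold, 100 of 100 changed 4-fold and 10 unchanged genes among 12038 tested. The simulation gave every gene the same coefficient of variation, held no outlying library and changed only 200 genes. It therefore does not show how changes under 2-fold, or genes with uneven libraries, fare in the real data. Positions come from GENCODE 44, promoters from RefSeq (83 of 106 listed genes), and sharing was counted in 50-base stretches. Tables and figures used Python 3.11.15, pandas 2.3.3 and matplotlib 3.10.9.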

Additional observations from a re-analysis of the deposited data

How the results depend on the processing

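Of the 10 genes, 3 were lower under each alternative tried, and 1 was higher under each except without IGF2BP1-NC replicate 1. With 1 library left out, the number higher ranged from 0 to 1, the number of called genes from 2290 to 3991, and the log2 fold changes of MAP1LC3B and ULK1 from -0.351 to 0.112 and from -0.029 to 0.134. MAP1LC3B was above 0 without IGF2BP1-NC replicate 1 (0.112) and ULK1 below 0 without IGF2BP1-KD replicate 1 (-0.029). With IGF2BP1-NC replicate 1 and IGF2BP1-KD replicate 3 both left out, chosen after the data had been seen, MAP1LC3B was at 0.119, MITF at 0.023 and 4188 genes were called. The causes were not tested. The other settings called 2624 to 3538 genes and moved the median log2 fold change of all genes to at most 0.026. The lysosome genes called higher numbered 10 to 13 with 1 library left out and 11 to 14 otherwise. Same-numbered libraries did not deviate together (correlations -0.08, 0.011 and -0.11, with 1 of 6 libraries closest to its own number). The numbers thus showed no sign of pairing, although 3 libraries a group cannot show that there was none. The replicate block called 2913 genes and, of the 10, 1 higher and 3 lower. TFEB and ATG9B have no value where a mean FPKM of 1 was required. Precision is limited by 3 libraries a group and, for TFEB, by counts of 31 to 55.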
